A study of Mus musculus with 12 samples.

Results

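The satellite cell and myogenic genes described here are Pax7, Myf5, Myod1, Calcr, Cdh15, Itga7, Vcam1, Sdc4, Heyl and Megf10. They were chosen by name, as the rows of the deposited count table that carry these symbols, and all 10 were found among 43346 listed genes. All 10 were also among the 16146 genes with enough reads to be tested. Messenger RNA came from the quadriceps, the large thigh muscle, of C57BL/6 mice in 3 groups of 4 libraries. Old D+Q mice were 24 months old and had been gavaged with dasatinib, a tyrosine kinase inhibitor, at 5 mg/kg together with quercetin, a plant flavonoid, at 50 mg/kg, a pair used as a senolytic, that is, to remove senescent cells. Old vehicle mice were also 24 months old and received the carrier solution of ethanol, polyethylene glycol and Phosal. Both old groups were dosed from month 20 on 3 days in every 2 weeks. Young mice were 6 months old, and the labels give no gavage for them, so age and gavage cannot be told apart in a comparison with young muscle. Nothing in the labels ties a library to its own animal, so the p-values below speak only of the spread between libraries. Library totals ran from 43152512 to 45901603 reads in old D+Q, from 38109111 to 49792488 in old vehicle and from 26715140 to 47818075 in young.

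Satellite cells are the stem cells of skeletal muscle and lie between the fibre and its basal lamina. In resting muscle they express the transcription factor Pax7, and Notch signals and the calcitonin receptor help to hold them in quiescence. Many quiescent satellite cells already transcribe Myf5. On activation satellite cells express Myod1, and their daughters differentiate under Myog and fuse into fibres. They are a small share of the nuclei in a whole muscle, so most RNA in these libraries comes from fibres, and several of the 10 genes are also expressed outside satellite cells: Itga7 and Myod1 in fibres, Vcam1 in endothelial cells, Heyl in vessel walls and Sdc4 widely. Skeletal muscle genes were abundant, as the tissue label asks: the summed level of 12 fibre genes such as Acta1 and Ckm, in CPM (reads of a gene scaled to the total of its library), was 144200 to 222100 CPM in old D+Q, 144400 to 180000 CPM in old vehicle and 131000 to 203500 CPM in young.

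Per length of gene, the 10 genes spanned a wide range, and their order was nearly the same in all groups. On the RPKM scale (CPM divided by gene length in kilobases), Itga7 averaged 28.3 ± 3.48 in old D+Q, 24.1 ± 5.40 in old vehicle and 17.0 ± 6.06 in young (SD, n = 4). Sdc4 averaged 25.8 ± 12.6 RPKM in old D+Q, 26.1 ± 11.6 RPKM in old vehicle and 20.1 ± 9.69 RPKM in young, so these neighbours did not differ beyond their spread. Myod1 followed at 13.7 ± 4.11 RPKM in old D+Q, 16.9 ± 5.69 RPKM in old vehicle and 7.86 ± 2.58 RPKM in young, and Cdh15 came next at 6.11 ± 1.76 RPKM in old D+Q, 5.37 ± 1.499 RPKM in old vehicle and 3.43 ± 1.74 RPKM in young. Heyl and Vcam1 stood at 1.59 to 3.13 RPKM as group means. The other 4 genes were the lowest: Myf5 had group means of 0.484 to 0.578 RPKM, Pax7 of 0.308 to 0.459 RPKM, Megf10 of 0.116 to 0.301 RPKM and Calcr of 0.0716 to 0.198 RPKM. Calcr rested on 48 reads over the 4 old D+Q libraries, 56 over the 4 old vehicle libraries and 114 over the 4 young libraries.

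**Figure D1:**
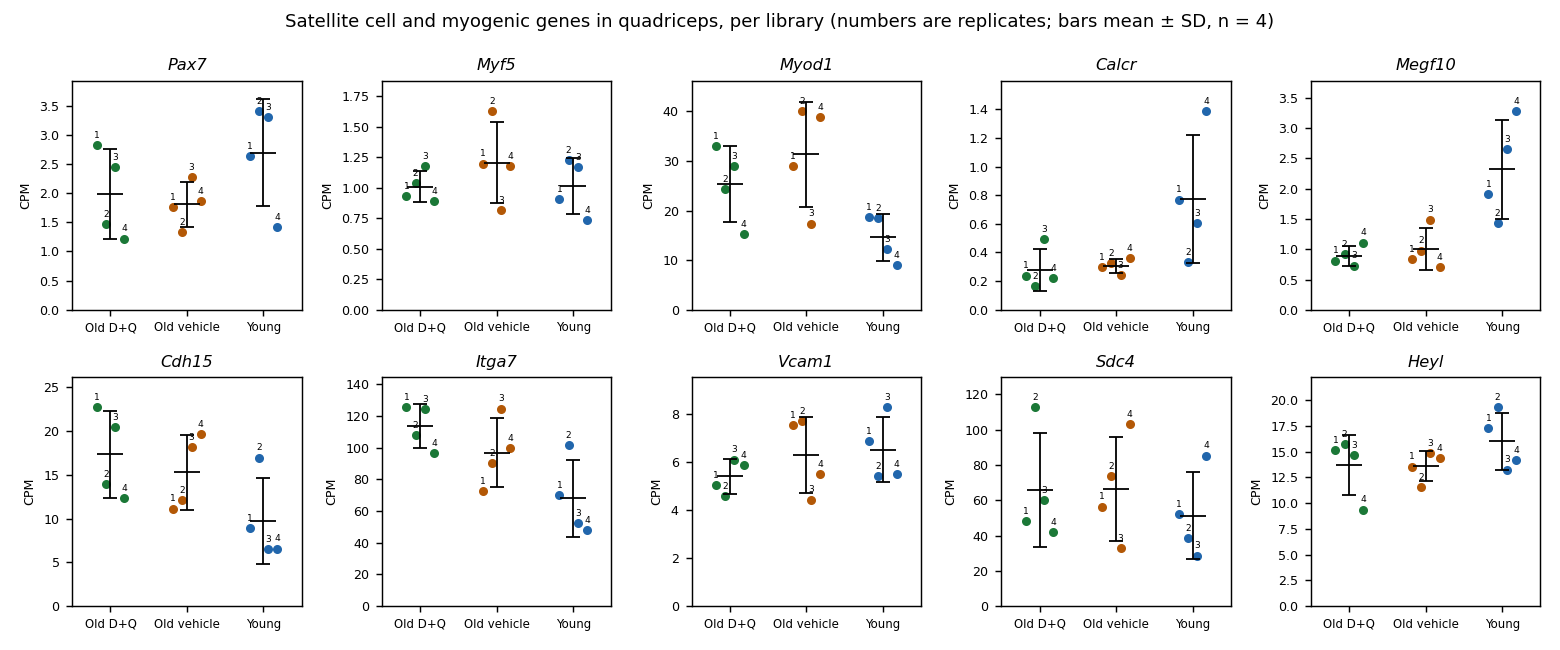
Each panel plots the level of 1 gene in CPM (linear axis from 0) in old D+Q, old vehicle and young libraries; points are libraries numbered by replicate, and bars are mean ± SD (n = 4). Megf10 is at 0.729 to 1.11 CPM in old D+Q and at 1.43 to 3.29 CPM in young, with no overlap, while old vehicle replicate 3 lies inside the young range.

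None of the 10 genes passed the threshold, a Benjamini-Hochberg adjusted p under 0.05 over all tested genes in edgeR's quasi-likelihood test, in any of the 3 comparisons. Against young, 0 of 10 were called in old vehicle, where 1.86% of all tested genes were called, and 0 of 10 in old D+Q, where the share was 0.892%. Between old D+Q and old vehicle 0 of 10 were called, beside 0% of all genes. Of all tested genes, 1.21% were called higher and 0.65% lower in old vehicle against young, and 0.526% higher and 0.365% lower in old D+Q against young. At an unadjusted p under 0.05 there were 4 of 10 in old vehicle against young, beside 16% of all genes, 5 of 10 in old D+Q against young, beside 17.8%, and 0 of 10 in old D+Q against old vehicle, beside 2.16%. DESeq2 called 2 of the 10 in old vehicle against young, Myod1 and Megf10, beside 4.17% of all genes, and 2 in old D+Q against young, Itga7 and Megf10, beside 3.35%. It called 0 between the old groups, beside 0.0672%. With limma-voom 0 of 10 were called in each comparison, beside 1.71% of all genes in old vehicle against young, 0.749% in old D+Q against young and 0% between the old groups. At a threshold of 0.1 edgeR called 1 of the 10, Megf10, in each comparison with young, beside 3.51% of all genes in old vehicle and 2.21% in old D+Q. The libraries of old vehicle and young overlapped for all 10 genes, whereas 9.36% of all tested genes had no overlap.

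Promoter sequences from RefSeq (GRCm38.p6, 250 bases before to 50 after a transcript start) matched 5 of the 10 genes. Shown are those of Pax7, the defining gene of the cell, of Calcr, which had the lowest fold change in both comparisons with young, and of Cdh15, which was among the highest. Capitals mark E-boxes, the CANNTG motif that the Myod1 and Myf5 proteins bind, searched on both strands (the motif is its own reverse complement), and the Notch-pathway motif TGGGAA, also on both strands. Pax7 (chr4:139832919-139833218, minus strand) had neither motif in this window. That window lies wholly inside the listed gene, which ends at 139833528, so sequence before the listed end was not searched. Calcr (chr6:3764664-3764963, minus strand, of 2 entries the one that starts at the end of the listed gene) had 1 E-box, and Cdh15 (chr8:122848124-122848423, plus strand) had 4.
Pax7: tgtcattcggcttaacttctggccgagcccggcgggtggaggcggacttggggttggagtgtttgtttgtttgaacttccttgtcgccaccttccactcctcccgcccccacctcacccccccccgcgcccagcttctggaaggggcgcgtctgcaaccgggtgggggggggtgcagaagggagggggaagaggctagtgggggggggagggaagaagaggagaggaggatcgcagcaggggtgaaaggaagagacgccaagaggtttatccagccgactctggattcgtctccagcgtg
Calcr: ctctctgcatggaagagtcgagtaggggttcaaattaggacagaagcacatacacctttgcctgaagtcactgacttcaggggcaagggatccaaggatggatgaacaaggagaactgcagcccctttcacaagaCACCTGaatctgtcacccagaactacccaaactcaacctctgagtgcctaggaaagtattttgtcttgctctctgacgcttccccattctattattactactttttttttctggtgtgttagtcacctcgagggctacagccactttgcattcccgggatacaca
Cdh15: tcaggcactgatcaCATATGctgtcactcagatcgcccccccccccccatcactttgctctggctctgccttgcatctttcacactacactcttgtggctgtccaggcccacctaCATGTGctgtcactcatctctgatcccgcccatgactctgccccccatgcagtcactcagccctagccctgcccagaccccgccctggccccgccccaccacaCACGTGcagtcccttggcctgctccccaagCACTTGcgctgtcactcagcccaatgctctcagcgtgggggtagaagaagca
Of 32851 mouse promoters of this length in the table, 72.3% hold at least 1 CANNTG, 16.3% hold CAGCTG and 25.6% hold TGGGAA in either orientation. An E-box in such a window is thus common, and the letters CAGCTG are not in these 3 windows. The windows of Myf5, Sdc4 and the other Calcr entry held 0 E-boxes, and that of Myf5 held 1 TGGGAA.

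Among the transcription factors, Pax7 was lower and Myod1 higher in old muscle as estimates, and Myf5 differed little. Pax7 (mm10 chromosome 4, 139737062 to 139833528) had 2.82, 1.47, 2.45 and 1.22 CPM in old D+Q replicates 1 to 4. Old vehicle libraries had 1.76, 1.33, 2.28 and 1.86 CPM, and young libraries 2.63, 3.41, 3.298 and 1.42 CPM. Young replicates 1, 2 and 3 were above every old vehicle library, and young replicate 4 was within the old range. The log2 fold change in old vehicle against young was -0.58 ± 0.32 SE, with a 95% interval from -1.27 to 0.11 (edgeR adjusted p = 0.377), and in old D+Q against young it was -0.44 ± 0.32 SE (adjusted p = 0.417). In bulk muscle, fewer cells of a type and less RNA per cell cannot be told apart.

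Myf5, on chromosome 10 from 107482908 to 107486134, encodes a myogenic factor already transcribed in many quiescent satellite cells. It had 0.931, 1.04, 1.18 and 0.887 CPM in old D+Q, 1.20, 1.63, 0.813 and 1.18 CPM in old vehicle and 0.909, 1.23, 1.17 and 0.737 CPM in young. The 3 groups overlapped throughout. The log2 fold change was 0.26 ± 0.24 SE in old vehicle against young (edgeR adjusted p = 0.568) and -0.002 ± 0.24 SE in old D+Q against young (adjusted p = 0.996), where the 95% interval ran from -0.52 to 0.52.

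Myod1, the myogenic factor of activated satellite cells and also of fibres, lies on chromosome 7 from 46376474 to 46379092. It had 32.9, 24.3, 29.0 and 15.2 CPM in old D+Q and 29.0, 40.1, 17.4 and 38.8 CPM in old vehicle. Young libraries had 18.7, 18.4, 12.2 and 9.01 CPM. All but 1 library of each old group stood above every young library, the exceptions being old vehicle replicate 3 and old D+Q replicate 4. Old vehicle was 2.15-fold higher than young as an estimate (log2 fold change 1.10 ± 0.31 SE, edgeR adjusted p = 0.104), and old D+Q 1.74-fold higher (0.80 ± 0.31 SE, adjusted p = 0.241).

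The later factors of the same family, Myog and Myf6, rose past the threshold in old vehicle against young. Myog, which drives differentiation and is also raised in denervated fibres, had 14.1, 17.96, 14.6 and 9.36 CPM in old D+Q, 19.6, 43.3, 14.01 and 37.3 CPM in old vehicle and 5.197, 3.97, 2.91 and 5.67 CPM in young. Neither old group overlapped the young libraries, as held for 9.36% of all tested genes in old vehicle and 6.69% in old D+Q. Myog was 6.42-fold higher in old vehicle than in young (log2 fold change 2.68 ± 0.36 SE, edgeR adjusted p = 0.00242) and 3.14-fold higher in old D+Q than in young (1.65 ± 0.35 SE, adjusted p = 0.0453). In fits that left out 1 library each, the old vehicle call held in 8 of 8, and the old D+Q call in 2 of 8, those without old D+Q replicate 4 or young replicate 2 (adjusted p 0.0356 to 0.137 over the 8). Myf6, the family member of mature fibres, averaged 93.5 ± 10.5 CPM in old D+Q, 117 ± 19.1 CPM in old vehicle and 64.5 ± 11.5 CPM in young (SD, n = 4), 1.81-fold higher in old vehicle than in young (adjusted p = 0.0120) and 1.45-fold in old D+Q (adjusted p = 0.123, not past the threshold). The Myf6 call in old vehicle held in 8 of 8 such fits. Whether Myod1 changed less than Myog was not tested.

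**Figure D2:**
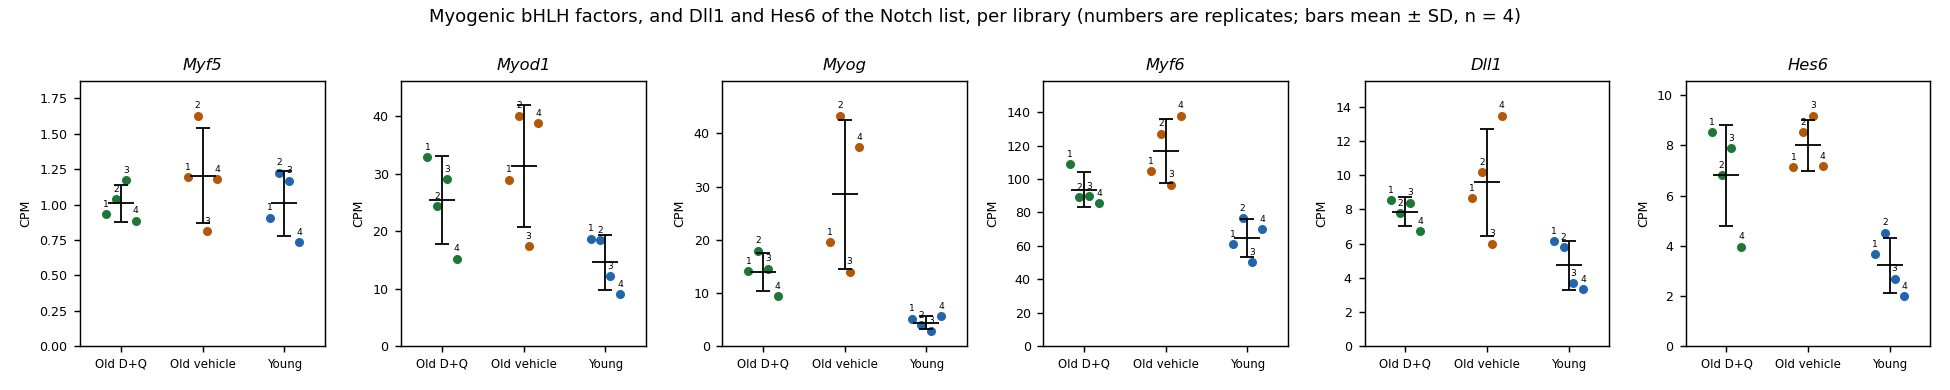
Each panel plots CPM (linear axis from 0) in old D+Q, old vehicle and young libraries for the 4 myogenic basic helix-loop-helix factors and for Dll1 and Hes6; points are libraries numbered by replicate, and bars are mean ± SD (n = 4). Myog and Myf6 separate both old groups from young, whereas Myf5 overlaps in all groups.

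Of 18 genes of myogenic regulation and fusion, 4 rose and 0 fell in old vehicle against young, with a median log2 fold change of 0.17 beside -0.01 over all tested genes. They were Myog, Myf6, Id2, which encodes an inhibitor of such factors and was 2.52-fold higher (edgeR adjusted p = 0.00539), and Mymx, which encodes the fusion peptide myomixer (adjusted p = 0.0425). Mymx had 33 reads in all old D+Q, 93 in all old vehicle and 4 in all young libraries. With 1 library left out, the call of Id2 held in 8 of 8 fits and that of Mymx in 1 of 8, the fit without young replicate 2 (adjusted p 0.0475 to 0.122). Of the same 18, 1 rose in old D+Q against young, Myog, and 0 fell, with a median of 0.21. Genes of the denervation response also rose. In old vehicle against young 11 of 14 did (median log2 fold change 1.81), beside 1.21% of all genes called higher. In old D+Q against young 6 of 14 did (median 0.99), beside 0.526%. Myog itself was 1 of the 14, and this list, like the others, was chosen with earlier results of these data known. With 1 library left out, 10 of the 11 calls in old vehicle held in 8 of 8 fits and that of Musk in 7 of 8. Of the 6 calls in old D+Q, those of Ankrd1, Chrnb1 and Gadd45a held in 8 of 8 fits, that of Myog in 2 of 8 and those of Runx1 and Hdac4 in 1 of 8, the fit without young replicate 2. Runx1, a transcription factor of denervated fibres, averaged 7.19 ± 1.18 CPM in old D+Q, 19.3 ± 6.95 CPM in old vehicle and 2.72 ± 0.887 CPM in young (SD, n = 4). Chrnb1, a subunit of the muscle acetylcholine receptor, averaged 74.0 ± 9.58 CPM in old D+Q, 89.0 ± 7.84 CPM in old vehicle and 36.3 ± 4.51 CPM in young. The summed level of the 14 genes was 281 to 415 CPM in old D+Q, 440 to 718 CPM in old vehicle and 151 to 178 CPM in young. Among 11 tested cell division genes 0 were called in edgeR in either comparison, with 1 at an unadjusted p under 0.05 in old vehicle against young and 0 in old D+Q against young. The part of the denervation genes in the values of Myod1 and Myog was not tested.

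Calcr and Megf10, a pair of cell surface receptors of satellite cells, had the lowest fold changes of the 10 genes in old muscle. Calcr encodes the calcitonin receptor, which keeps satellite cells quiescent, and lies on chromosome 6 from 3685677 to 3764713. It had 0.239, 0.166, 0.494 and 0.222 CPM in old D+Q, 0.299, 0.326, 0.244 and 0.363 CPM in old vehicle and 0.769, 0.334, 0.603 and 1.39 CPM in young. Young replicates 1, 3 and 4 were above all 8 old libraries, and young replicate 2 was within their range. The log2 fold change was -1.31 ± 0.42 SE in old vehicle against young (2.48-fold lower, edgeR adjusted p = 0.152) and -1.45 ± 0.43 SE in old D+Q against young (2.73-fold lower, adjusted p = 0.143). Neither passed. Without young replicate 2 both did, at an edgeR adjusted p = 0.0327 in old vehicle, beside 6.26% of all genes, and 0.0257 in old D+Q, beside 11.9%. Without young replicate 4 the estimates were nearer 0, at -0.87 in old vehicle against young (adjusted p = 0.412) and -1.01 in old D+Q against young (adjusted p = 0.358).

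Megf10 encodes a receptor with epidermal growth factor repeats that regulates satellite cell proliferation, and lies on chromosome 18 from 57133090 to 57297467. It had 0.812, 0.922, 0.729 and 1.11 CPM in old D+Q and 0.842, 0.978, 1.49 and 0.702 CPM in old vehicle. Young libraries had 1.91, 1.43, 2.66 and 3.29 CPM. Every old D+Q library was below every young library, and 3 of 4 old vehicle libraries were below every young library. Over all tested genes, 6.69% had no overlap between old D+Q and young libraries, counted in either direction. The estimate was 2.31-fold lower in old vehicle than in young (log2 fold change -1.21 ± 0.29 SE, edgeR adjusted p = 0.0586) and 2.58-fold lower in old D+Q than in young (-1.37 ± 0.29 SE, adjusted p = 0.0526). Both lay just short of the threshold. The old vehicle value passed without old vehicle replicate 3 (adjusted p = 0.0434), beside 0.923% of all genes. In old D+Q against young Megf10 passed with upper quartile scaling (adjusted p = 0.0480, beside 0.954% of all genes), with library totals as the only scaling (0.0484, beside 0.966%), with no filter on low counts (0.0432, beside 0.541%) and with a filter on CPM (0.0492, beside 1.1%). Of 21 other settings, a threshold of 0.1 included, it passed in 5 in old vehicle and in 8 in old D+Q. In both comparisons it missed the threshold without young replicate 1, 3 or 4. Without young replicates 3 and 4 the log2 fold change was -0.74 in old vehicle (edgeR adjusted p = 0.460) and -0.90 in old D+Q (adjusted p = 0.398).

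A contrast of the mean of both old groups with young was added after these values had been seen. It called 1 of the 10 genes, Megf10, beside 3.15% of all tested genes, and Megf10 fell 2.44-fold in old muscle (log2 fold change -1.29 ± 0.24 SE, edgeR adjusted p = 0.0148). It did not pass once young replicate 3 (adjusted p = 0.0581, beside 1.23% of all genes) or young replicate 4 (0.0622, beside 1.31%) was left out, nor without both of them (log2 fold change -0.82, adjusted p = 0.283, beside 0.529%). For Calcr the estimate in that contrast was -1.38 ± 0.36 SE on the log2 scale (adjusted p = 0.0555), and for Myod1 it was 0.95 ± 0.28 SE (adjusted p = 0.0845). At a threshold of 0.1 these 3 genes were called, beside 6.9% of all genes. Upper quartile scaling called Calcr and Megf10, beside 3.29%, and DESeq2 called Calcr, Itga7, Megf10 and Myod1, beside 7.38%.

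Partners of the calcitonin receptor gave 1 call of 8 tested in each comparison with young, the same gene in both. Col5a2, a chain of collagen V, which satellite cells make and which acts on the calcitonin receptor, averaged 22.4 ± 3.90 CPM in old D+Q, 25.1 ± 4.07 CPM in old vehicle and 40.1 ± 2.67 CPM in young (SD, n = 4). It fell 1.60-fold in old vehicle against young (edgeR adjusted p = 0.0384) and 1.80-fold in old D+Q against young (adjusted p = 0.0199), with no overlap between either old group and young. Over all tested genes, 9.36% had no overlap between old vehicle and young and 6.69% between old D+Q and young. With 1 library left out, Col5a2 passed in 2 of 8 fits in old vehicle, those without old vehicle replicate 4 or young replicate 2 (adjusted p 0.0251 to 0.107). In old D+Q it passed in 4 of 8, and did not pass without old D+Q replicate 2 or young replicate 1, 3 or 4 (0.0133 to 0.0687). Col5a1 and Col5a3 had log2 fold changes of -0.54 and -0.42 in old vehicle against young (adjusted p = 0.210 and 0.438). Fibro-adipogenic progenitors and tendon cells also make fibrillar collagens, and their summed markers were 1317 to 1866 CPM and 202 to 361 CPM in old D+Q, 1271 to 1720 CPM and 224 to 409 CPM in old vehicle and 1674 to 2176 CPM and 400 to 527 CPM in young. Of 10 markers in each of these lists, 2 fell and 0 rose in each comparison with young. Of all tested genes, 0.65% were called lower in old vehicle against young and 0.365% in old D+Q. At an unadjusted p under 0.05 there were 4 of 10 progenitor and 7 of 10 tendon markers in each comparison. Of all tested genes, 16% were under it in old vehicle against young and 17.8% in old D+Q. The tendon markers had a median log2 fold change of -0.70 in old vehicle and -0.64 in old D+Q against young. The tendon calls, Col11a1 and Tnc, held in 2 and 3 of 8 fits without 1 library in old vehicle and in 3 and 1 of 8 in old D+Q, and both were lost without young replicate 1. Of the progenitor calls in old vehicle, Col3a1 held in 4 of 8 fits and Cd34 in 1 of 8; in old D+Q both held in 8 of 8. Their part in the values of Col5a2 was not tested.

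**Figure D3:**
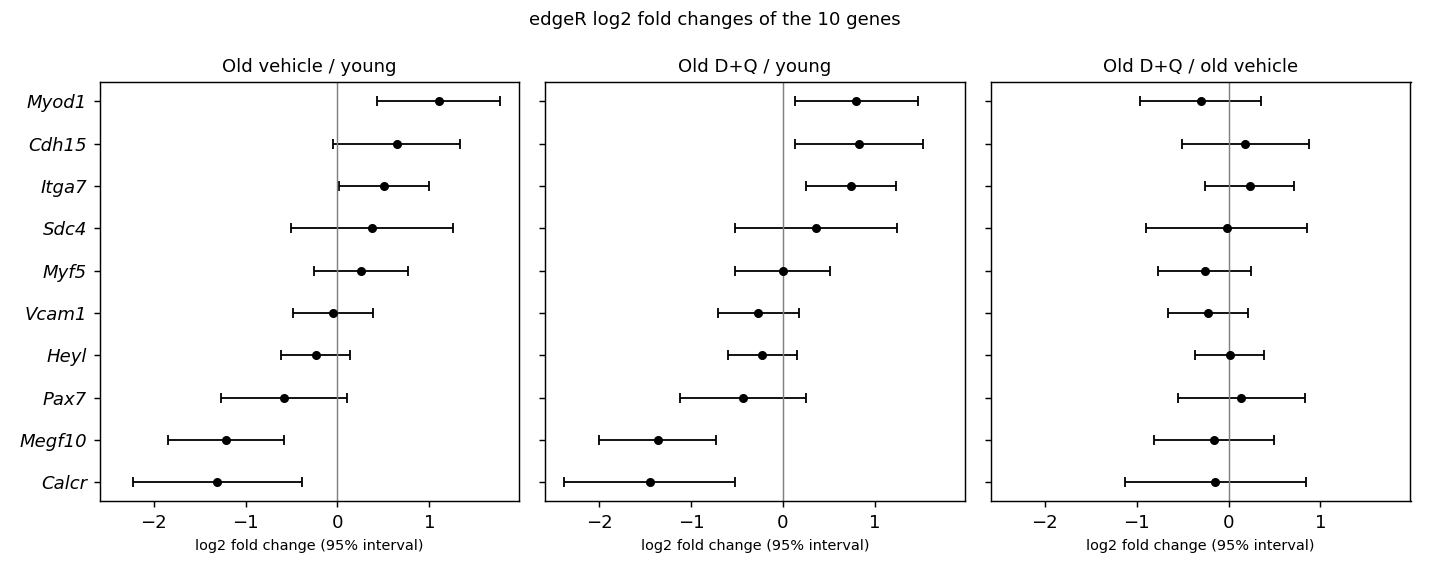
Points are edgeR log2 fold changes of the 10 genes and lines their 95% intervals, for old vehicle over young, old D+Q over young and old D+Q over old vehicle, on a shared axis. The intervals of Calcr, Megf10, Myod1 and Itga7 exclude 0 in both comparisons with young and that of Cdh15 in old D+Q over young, without adjustment for the number of genes, and every interval between the old groups includes 0.

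The adhesion genes Cdh15 and Itga7 moved together across libraries. Cdh15 encodes M-cadherin, which joins satellite cells to fibres, and lies on chromosome 8 from 122848374 to 122867397. It had 22.7, 13.9, 20.4 and 12.4 CPM in old D+Q, 11.1, 12.1, 18.1 and 19.7 CPM in old vehicle and 8.88, 17.0, 6.53 and 6.58 CPM in young. Young replicate 2 was higher than 2 of the 4 libraries in each old group, and the other young libraries were below all old ones. The log2 fold change was 0.64 ± 0.32 SE in old vehicle against young (edgeR adjusted p = 0.342) and 0.83 ± 0.32 SE in old D+Q against young (adjusted p = 0.240). A listed gene, Gm20388, covers all 19024 bases of Cdh15 and held 37450 reads over the 12 libraries beside 7218 for Cdh15, so the split of reads between the pair is uncertain.

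Itga7 encodes the alpha chain of the laminin receptor of fibres and satellite cells and lies on chromosome 10 from 128933813 to 128958277. It had 126, 108, 125 and 96.6 CPM in old D+Q, 72.7, 90.1, 125 and 99.6 CPM in old vehicle and 70.2, 102, 52.6 and 47.8 CPM in young. Young replicate 2 again stood with the old libraries. The log2 fold change was 0.51 ± 0.22 SE in old vehicle against young (edgeR adjusted p = 0.294) and 0.74 ± 0.23 SE in old D+Q against young (adjusted p = 0.154). Its partner Itgb1 had -0.08 in old vehicle against young (adjusted p = 0.780) and -0.17 in old D+Q against young (adjusted p = 0.470). Without young replicate 2 both genes passed in both comparisons with edgeR. Cdh15 was then 1.03 higher on the log2 scale in old vehicle than in young (adjusted p = 0.0392) and 1.21 higher in old D+Q (adjusted p = 0.0241). Itga7 was 0.74 higher in old vehicle (adjusted p = 0.0364) and 0.97 higher in old D+Q (adjusted p = 0.0156). Without that library 4 of the 10 genes were called in old vehicle, beside 6.26% of all genes, and 4 in old D+Q, beside 11.9%: Cdh15, Itga7, Calcr and Megf10 in both. In the contrast of both old groups it was these and Myod1, beside 21.4%. Without young replicates 3 and 4 the estimates were smaller: Cdh15 had 0.24 in old vehicle against young (adjusted p = 0.952) and 0.42 in old D+Q against young (adjusted p = 0.939), and Itga7 had 0.17 in old vehicle (adjusted p = 0.936) and 0.40 in old D+Q (adjusted p = 0.769).

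A property of whole libraries moved most closely with Cdh15 and Itga7 among the 10 genes, and less closely with others. In each library the deviation of a gene from its mean log2 CPM was set against log2 gene length over 11853 genes, and the slope says how far long genes read high in that library. It was -0.058, 0.0061, -0.054 and 0.051 per doubling of length in old D+Q replicates 1 to 4, 0.022, 0.0068, -0.032 and -0.039 in old vehicle and 0.0015, -0.059, 0.068 and 0.088 in young. Young replicates 3 and 4 were thus the highest and young replicate 2 the lowest. Pearson's r of log2 CPM with this slope was -0.904 for Cdh15, -0.833 for Itga7, -0.657 for Myod1, 0.647 for Megf10 and -0.519 for Heyl. For Pax7 it was -0.461, for Calcr 0.451, for Vcam1 0.409, for Myf5 -0.258 and for Sdc4 0.0167. With this slope as a covariate, a fit chosen after seeing the data, 3 of the 10 genes were called in each comparison with young, beside 7.94% of all genes in old vehicle and 6.03% in old D+Q, and 0 of 10 between the old groups, beside 0%. For old vehicle these were Myod1 (1.93-fold higher, edgeR adjusted p = 0.0397), Cdh15 (1.31-fold higher, adjusted p = 0.0491) and Megf10 (1.93-fold lower, adjusted p = 0.0339). For old D+Q they were Itga7 (1.47-fold higher, adjusted p = 0.0118), Cdh15 (1.45-fold higher, adjusted p = 0.0179) and Megf10 (2.16-fold lower, adjusted p = 0.0245). In the contrast of both old groups with young this fit called 5 genes, beside 11.5% of all genes: Megf10, Pax7 (1.69-fold lower, adjusted p = 0.0390), Heyl (1.29-fold lower, adjusted p = 0.0368), Cdh15 and Itga7. The slope was computed from the same libraries and its mean was -0.014 in old D+Q and -0.011 in old vehicle, against 0.025 in young. The young slopes, from -0.059 to 0.088, spanned those of all 8 old libraries.

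**Figure D4:**
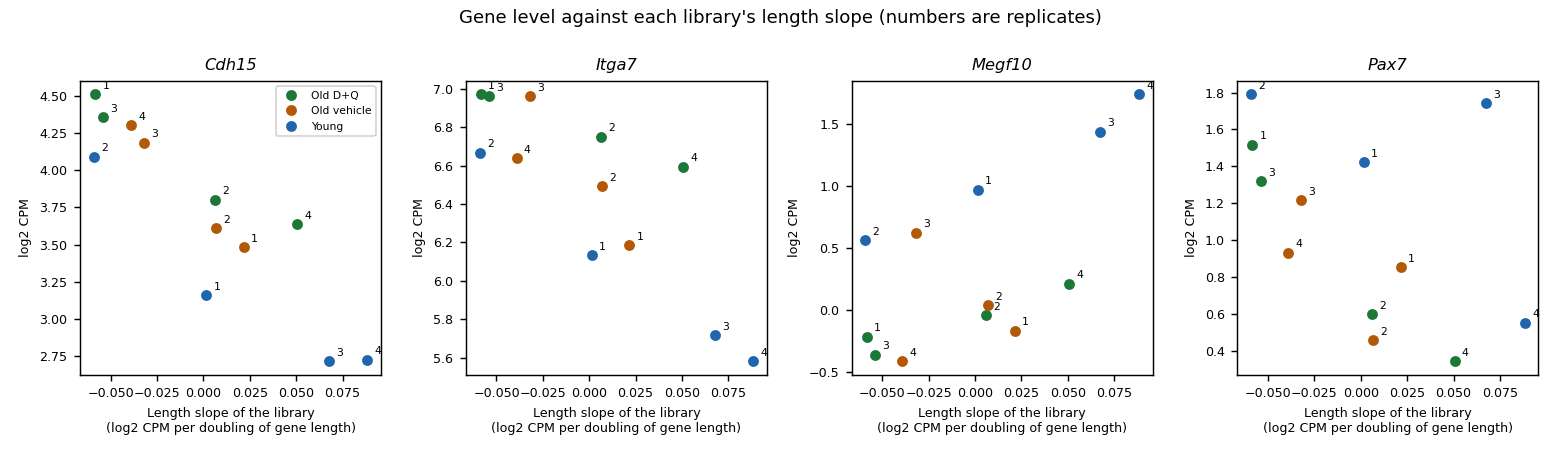
Each panel plots log2 CPM of 1 gene against the library's length slope (log2 CPM per doubling of gene length); points are libraries, coloured by group and numbered by replicate. Cdh15 and Itga7 are lower where the slope is higher, and Megf10 is highest in young replicates 4, 3 and 1, with old vehicle replicate 3 just above young replicate 2.

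Vcam1 and Sdc4, surface proteins shared with other cells, did not separate the groups. Vcam1, an adhesion molecule of satellite cells and of endothelium, on chromosome 3 from 116110020 to 116129688, had 5.06, 4.59, 6.12 and 5.88 CPM in old D+Q, 7.56, 7.71, 4.45 and 5.51 CPM in old vehicle and 6.90, 5.44, 8.30 and 5.50 CPM in young. Its log2 fold change was -0.05 ± 0.20 SE in old vehicle against young (95% interval -0.48 to 0.39, edgeR adjusted p = 0.912) and -0.27 ± 0.20 SE in old D+Q against young (adjusted p = 0.433). Summed endothelial markers were 519 to 597 CPM in old D+Q, 491 to 570 CPM in old vehicle and 389 to 620 CPM in young, and 0 of 10 were called in either comparison, with 0 and 1 at an unadjusted p under 0.05. Its receptor chain Itga4 had a log2 fold change of 0.01 in old vehicle against young (adjusted p = 0.985) and of -0.02 in old D+Q against young (adjusted p = 0.971).

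Sdc4, a heparan sulphate proteoglycan that serves as a co-receptor for growth factors, lies on chromosome 2 from 164424247 to 164443887. It had 48.0, 113, 59.9 and 42.1 CPM in old D+Q, 56.3, 73.4, 32.9 and 103 CPM in old vehicle and 51.9, 38.6, 28.7 and 85.2 CPM in young. The highest of the 12 libraries was 3.93 times the lowest, and the groups overlapped throughout. The log2 fold change in old vehicle against young was 0.38 ± 0.41 SE (edgeR adjusted p = 0.624), with a 95% interval from -0.50 to 1.26. Of the other syndecans, Sdc2 had the lowest value, -0.51 in old vehicle against young (adjusted p = 0.133) and -0.66 in old D+Q against young (adjusted p = 0.0710), while in old vehicle against young Sdc1 had -0.14 and Sdc3 0.45 (adjusted p = 0.714 and 0.333).

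Heyl, a transcription factor induced by Notch in satellite cells and in vessel walls, lies on chromosome 4 from 123233556 to 123249875. It had 15.1, 15.7, 14.6 and 9.36 CPM in old D+Q, 13.5, 11.6, 14.9 and 14.4 CPM in old vehicle and 17.3, 19.3, 13.3 and 14.2 CPM in young. The groups overlapped. Its log2 fold change was -0.24 ± 0.17 SE in old vehicle against young (edgeR adjusted p = 0.489) and -0.22 ± 0.17 SE in old D+Q against young (adjusted p = 0.446). Summed smooth muscle and pericyte markers were 954 to 1236 CPM in old D+Q, 1049 to 1139 CPM in old vehicle and 1085 to 1392 CPM in young, and their part in Heyl was not tested.

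Over 18 genes of the Notch pathway the median log2 fold change in old vehicle against young was 0.18. Of them 0 fell and 1 rose, beside 1.21% of all genes called higher. It was Hes6, which encodes an inhibitor of Hes1 that favours myogenic differentiation, at 6.80 ± 2.01 CPM in old D+Q, 8.01 ± 1.01 CPM in old vehicle and 3.22 ± 1.11 CPM in young (SD, n = 4), 2.48-fold higher in old vehicle than in young (edgeR adjusted p = 0.0272) and 2.10-fold in old D+Q (adjusted p = 0.0877). The call of Hes6 held in 1 of 8 fits without 1 library, the fit without young replicate 2 (adjusted p 0.0126 to 0.091). Of these 18, edgeR called 0 in old D+Q against young, with 6 at an unadjusted p under 0.05, beside 17.8% of all genes. Dll1, a Notch ligand, had 8.55, 7.80, 8.40 and 6.72 CPM in old D+Q, 8.64, 10.2, 5.99 and 13.5 CPM in old vehicle and 6.13, 5.79, 3.69 and 3.32 CPM in young (adjusted p = 0.0689 in old vehicle against young). The Notch targets Hes1, Hey1 and Hey2 had log2 fold changes of 0.08, 0.19 and -0.41 in old vehicle against young, none past the threshold (adjusted p = 0.891, 0.654 and 0.482).

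Other satellite cell genes were split. In old vehicle against young 1 of 18 rose and 1 fell, with a median log2 fold change of -0.08. Of all tested genes, 1.21% were called higher and 0.65% lower there. Cd82, a tetraspanin, averaged 16.0 ± 5.23 CPM in old D+Q, 24.6 ± 7.61 CPM in old vehicle and 8.35 ± 3.11 CPM in young (SD, n = 4), 2.94-fold higher in old vehicle than in young (edgeR adjusted p = 0.0241). Cd34, also a marker of endothelium and of fibro-adipogenic progenitors, averaged 65.3 ± 5.07 CPM in old D+Q, 73.4 ± 5.07 CPM in old vehicle and 99.1 ± 7.23 CPM in young, and fell 1.35-fold in old vehicle (adjusted p = 0.0359) and 1.52-fold in old D+Q (adjusted p = 0.0113), both against young. Against young, 2 of 18 fell and 0 rose in old D+Q, the other being Chodl, which encodes the lectin chondrolectin and was 1.93-fold lower (adjusted p = 0.0369). In that comparison 0.365% of all tested genes were called lower. With 1 library left out, Cd34 passed in 8 of 8 fits in old D+Q. The other calls rested on few fits: Cd34 in old vehicle passed in 1 of 8, without young replicate 2 (adjusted p 0.0159 to 0.134), Cd82 in 2 of 8, without young replicate 2 or old vehicle replicate 1 (0.0116 to 0.0871), and Chodl in 1 of 8, without young replicate 2 (0.00611 to 0.119).

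Beside the progenitor and tendon markers above, markers of the other cell types gave few calls. In old vehicle against young 1 of 12 fibre genes rose, Myh1 (1.54-fold, edgeR adjusted p = 0.0114). Of 10 macrophage genes 1 rose, Cd68 (1.82-fold, edgeR adjusted p = 0.0176). The Cd68 call was lost without old vehicle replicate 1, 3 or 4, at an adjusted p up to 0.0552. Called were 0 of 10 smooth muscle and pericyte, 0 of 10 Schwann cell and 0 of 9 adipocyte genes. At an unadjusted p under 0.05 these 5 lists held 1, 4, 0, 2 and 1 genes in that order, beside 16% of all genes. These 5 lists gave 0 calls by edgeR in old D+Q against young. There 1, 3, 1, 1 and 1 genes in that order had an unadjusted p under 0.05, beside 17.8% of all genes. Summed adipocyte markers varied widely within groups, at 534 to 1093 CPM in old D+Q, 404 to 865 CPM in old vehicle and 421 to 2092 CPM in young, and their part in the levels of the 10 genes was not tested.

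Adhesion and growth factor partners gave 0 calls by edgeR in both comparisons with young: 0 of 13 laminin and integrin partners, 0 of 8 cadherin and catenin genes and 0 of 12 tested genes of the syndecan, fibroblast growth factor and hepatocyte growth factor list. At an unadjusted p under 0.05 these lists held 3, 2 and 2 genes in old vehicle against young and 6, 3 and 2 in old D+Q against young. Of all tested genes, 16% were under it in old vehicle against young and 17.8% in old D+Q. Lamb2, a laminin chain of the synaptic basal lamina, had a log2 fold change of 0.77 in old vehicle against young (adjusted p = 0.217) and of 0.96 in old D+Q against young (adjusted p = 0.149). For Jup, plakoglobin, it was 0.94 in each (adjusted p = 0.149 in old vehicle and 0.173 in old D+Q). For Gpc1, a glypican, it was 0.93 in old vehicle (adjusted p = 0.149) and 0.87 in old D+Q (adjusted p = 0.199).

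Between old D+Q and old vehicle 0 of the 10 genes were called, beside 0% of all genes, and each 95% interval included 0. The log2 fold changes of old D+Q against old vehicle ran from -0.30 for Myod1 to 0.23 for Itga7, with a median of -0.08 beside 0.01 over all tested genes, 4 positive and 6 negative, and each had an edgeR adjusted p that rounds to 1. The value was 0.14 ± 0.32 SE for Pax7, -0.26 ± 0.23 SE for Myf5, -0.30 ± 0.31 SE for Myod1, -0.14 ± 0.46 SE for Calcr and -0.16 ± 0.30 SE for Megf10. Their 95% intervals were wide: -0.55 to 0.83 for Pax7, -0.97 to 0.36 for Myod1, -1.13 to 0.84 for Calcr and -0.81 to 0.50 for Megf10. Heyl had the narrowest interval, -0.37 to 0.39. For all 10 genes the libraries of old D+Q and old vehicle overlapped, and over all tested genes 2.17% did not. A p that misses the threshold does not show that the groups are alike.

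Around the 10 genes, old D+Q against old vehicle gave -1.03 ± 0.33 SE on the log2 scale for Myog (2.04-fold lower, edgeR adjusted p = 0.9999, unadjusted p = 0.00892). Id2 had -0.81 ± 0.20 SE (1.76-fold lower, adjusted p = 0.9999). The Id2 libraries did not overlap, with 3.27, 4.33, 4.35 and 3.82 CPM in old D+Q and 7.09, 8.21, 4.66 and 7.68 CPM in old vehicle. Over all tested genes 2.17% had no overlap between these groups. In this comparison 2.16% of all genes had an unadjusted p under 0.05 and 0% were called. Of 18 myogenic regulators 0 were called by edgeR and 3 had an unadjusted p under 0.05. The 14 denervation genes were all negative, with a median of -0.86, 0 called and 9 at an unadjusted p under 0.05. Over all tested genes 7588 of 16146 were negative. These lists were chosen with earlier results of these data known, and whether D+Q lowered the denervation genes as a set was not tested. Of 11 cell division genes 10 were negative, with a median of -0.25, 0 called and 1 at an unadjusted p under 0.05. The 10 macrophage genes were all negative too, with a median of -0.16, 0 called and 2 at an unadjusted p under 0.05.

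Likeness over the 12 libraries showed which genes shared the pattern of each of the 10. It was measured as Pearson's r of log2 CPM with 11852 or 11853 other genes and is a description only, since libraries of a group share age and treatment and genes share the length slope. For Myod1 the gene most alike was Dll1 (r = 0.951), followed by Cntfr (0.948) and Osgin1 (0.933). For Pax7 they included Hacl1 (0.928) and Syne2 (0.907), and for Megf10 Hmgb3 (0.963), Epdr1 (0.956) and Lmbr1 (0.952). Heyl was most like the basement membrane and matrix collagens Col6a2 (0.924), Col15a1 (0.923) and Col4a1 (0.920), and Vcam1 was most like the interferon-inducible genes Ifi203 (0.859), Herc6 (0.859) and Mndal (0.854). Itga7 was most like Myo18a (0.983), Cdh15 most like Srp68 (0.989), Sdc4 most like Midn (0.933), Calcr most like Tspan6 (0.929) and Myf5 most like Diexf (0.810). Within the 10 genes Cdh15 and Itga7 had r = 0.949 (Spearman's rho 0.930), and 0.916 after each group's mean was taken out. Among the genes most like Cdh15, however, Itga7 held rank 608 of 11852. Myod1 and Megf10 ran opposite, at r = -0.892 (rho -0.825) and -0.863 within groups. The nearest of the 10 to Pax7 was Heyl at r = 0.659, but within groups Cdh15 (0.683) and Itga7 (0.632) were nearer than Heyl (0.58).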

How the data were processed

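Poly(A)-selected stranded libraries were made from quadriceps RNA, per the labels' protocols. Per the submitters' processing notes, STAR 2.6.1c, Subread and featureCounts 1.5.1 were used with mm10. Their roles, the strand setting and the annotation were not given in the sources used here. Every test used the counts, whole numbers of reads that the authors deposited for each gene; they also deposited RPKM values with gene lengths and positions. For each library 1 deposited RPKM column of its group was proportional to counts over length (coefficient of variation at most 0.0721%), and RPKM printed here were recomputed from counts, TMM-scaled totals and the deposited lengths. For pairs of libraries within groups, chi-square averaged over genes with enough reads in the pair was 19.9 to 307. All 12 libraries were kept as separate samples.

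Groups came from the labels. edgeR 4.0.16 in R 4.3.3 kept genes by filterByExpr (minimum count 10, total 15), scaled libraries by TMM and fitted all 12 in 1 quasi-likelihood model of group means, with Benjamini-Hochberg adjustment and a threshold of 0.05. A standard error (SE) is the log2 fold change divided by the root of edgeR's F. The method was also run on simulated counts with no length slope built in, so that run cannot speak for libraries with one. Of 211 listed genes 206 matched by symbol and 5 by an older symbol in the RefSeq table. All 10 genes are named; from each list up to 4 called genes per comparison, or, with none called, some of those with the smallest p, are named, with fixed family partners and the genes most alike. The members and lists were chosen with earlier results of these data known. Alternatives were DESeq2 1.42.0, limma-voom (limma 3.58.1), other scalings and filters, 2-group fits, robust shrinkage, a threshold of 0.1, a replicate block and leaving out libraries. Depth limits precision: 3 reads are 0.0561 to 0.106 CPM.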

Additional observations from a re-analysis of the deposited data

Results flagged for a closer look

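Heyl in old D+Q replicate 4 stood apart from the rest of its group. At 9.36 CPM it was below the other 3 libraries, at 14.6 to 15.7 CPM, and its gap to the nearest was 0.833 of the group's range, beyond the 95% critical value of Dixon's test for 4 libraries. Of the 30 groups of 4 examined, 1 was flagged, and chance flags about 1 in 20. Without that library the log2 fold change of Heyl in old D+Q against old vehicle was 0.16 in place of 0.01.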

How the results depend on the processing

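Of 866 values of single genes under other settings, 792 kept their direction and their side of the threshold, 41 came to pass it, 3 no longer passed (Megf10 in both old groups against young) and 30 changed sign. Against old vehicle, the count of the 10 genes called in old D+Q was 0 in every setting run. In old vehicle against young it was 2 with DESeq2, 1 at a threshold of 0.1, 3 with the length slope and 0 to 4 without 1 library. In old D+Q against young it was 2 with DESeq2, 1 with upper quartile scaling, library totals only, no filter, a CPM filter or a threshold of 0.1, 3 with the length slope and 0 to 4 without 1 library. For both old groups against young it was 4 with DESeq2, 2 with upper quartile scaling, 3 at a threshold of 0.1, 5 with the length slope, 0 without young replicates 3 and 4 and 0 to 5 without 1 library. The 4 and 5 came without young replicate 2.

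All genes called in old vehicle against young (300) were 744 with DESeq2, 188 in a 2-group fit, 566 at 0.1, 141 with a replicate block, 1282 with the length slope, 80 without young replicates 3 and 4 and 146 to 1022 without 1 library. In old D+Q against young (144) they were 581, 25, 357, 35, 973, 15 and 44 to 1935 in the same order. For both old groups against young (508), where no 2-group fit was run, they were 1243, 1114, 206, 1850, 88 and 202 to 3492. In old D+Q against old vehicle (0) they were 12 with DESeq2 and 0 to 0 without 1 library. The cause of these differences was not tested. Replicate numbers recur in each group, and the labels give no batch that ties them. Correlations of same-numbered libraries ran from -0.401 to 0.41. The replicate block gave 141 calls in place of 300 in old vehicle against young. Whether same-numbered libraries share a batch was not tested.

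Sign changes, all on the log2 scale, were mostly of values near 0, except Sdc4 in old D+Q against young (0.36, and -0.0325 without old D+Q replicate 2). In old D+Q against old vehicle Heyl was -0.0104 with limma-voom, -0.0505 with library totals only, -0.002 with no filter, -0.015 with the replicate block and -0.0127 with the length slope, and Sdc4 was 0.097 with the block. Without 1 library, the same comparison gave -0.0591 to 0.1573 for Heyl, -0.4099 to 0.263 for Sdc4, -0.5581 to 0.0391 for Calcr, -0.295 to 0.0881 for Megf10 and -0.0833 to 0.3172 for Pax7. In old D+Q against young Myf5 was 0.0136 with limma-voom and 0.0171 with the block, and without 1 library Myf5 ran from -0.1245 to 0.0816 and Sdc4 from -0.0325 to 0.7229. In old vehicle against young Vcam1 was 0.0242 with the length slope, 0.0345 without young replicates 3 and 4 and -0.1574 to 0.087 without 1 library. Calcr did not pass the CPM filter and has no value there. Low depth limits Calcr most.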
